A study of Homo sapiens with 29 samples.

Results

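The UGT2B gene cluster on chromosome 4 holds UGT2B17, UGT2B15, UGT2B7 and UGT2B28, and the open chromatin of this cluster was described across 29 ATAC-seq libraries of the human line 22Rv1, derived from prostate cancer. The cluster was taken as chr4:69350000-70420000 of build hg19, a window of 1070 kb, with UGT2B17 placed at 69434245, UGT2B15 at 69536494, UGT2B7 at 69962193 and UGT2B28 at 70146217. Peaks of all 29 deposited lists that overlapped the window were merged over libraries, which gave 76 regions of 166696 in the whole series. The regions were numbered 1 to 76 along the chromosome, and each was assigned to the nearest of the 4 gene positions by its midpoint. Of the 76 regions, 4 lay nearest to UGT2B17, 22 to UGT2B15, 19 to UGT2B7 and 31 to UGT2B28. Region 76, counted to UGT2B28, lay 220 kb from its position. The other genes of the family were not placed, so a region nearest to 1 of these 4 positions may lie at another gene.

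UGT2B enzymes sit in the endoplasmic reticulum and attach glucuronic acid to steroids, bile acids and drugs, which makes them water-soluble and ready for excretion. UGT2B15 and UGT2B17 act on dihydrotestosterone and its metabolites and are the main route by which prostate cells clear active androgen, and in prostate cancer cells both genes are known to be held down by the androgen receptor. UGT2B7 conjugates oestrogens, androgen metabolites, bile acids and many drugs, and UGT2B28 is a close relative with activity on steroids. FOXA1 is a pioneer factor, a protein that binds its motif in closed chromatin and opens it, and in prostate cells it works beside the androgen receptor.

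ATAC-seq marks open chromatin by the cuts that a transposase makes in it. Parental 22Rv1 cells gave 5 groups of 3 libraries: DMSO (0.1%), the stereoprobe WX-02-23 at 20 µM, its stereoisomer WX-02-43 at 20 µM, and 2 doses, 10 nM and 100 nM, of pladienolide B (PladB), which binds SF3B1 in the spliceosome. The engineered derivatives gave 7 groups of 2 libraries, and all of them overexpressed Y36C-PHF5A, a splicing factor variant, together with a doxycycline (Dox)-inducible FOXA1, either the wild type (WT-FOXA1) or C258A-FOXA1, which lacks the cysteine that WX-02-23 engages. Both engineered lines received Dox with DMSO, with WX-02-23 (20 µM) or with PladB (100 nM). DMSO without Dox was given to the WT-FOXA1 line alone. Exposure was 3 h throughout. The engineered cells still have their own FOXA1, and the labels do not say whether a line is 1 clone or a pool. The labels number the replicates without saying that they came from separate cultures, so a p-value here measures only the spread between these libraries, which may be technical. Peak lists carry no expression, so neither FOXA1 induction nor the prostate identity of the cells was checked here.

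Peaks per list numbered 82538 to 98193 in parental and 62832 to 92658 in engineered cells. Without read totals, the background level recovered from the lists served as a relative depth, which ran from 0.546 to 1.502 reads per base. List length did not always follow it. WX-02-43 replicate 3 had the highest background and 83748 peaks. WT-FOXA1 with WX-02-23 replicate 2 had a background of 1.26 and the fewest peaks, 62832. The parental lists came from 1 processing folder and the engineered lists from another, so cell kind and batch cannot be told apart. The measure compared between libraries was whether a list held a peak in a region, and an open region can go uncalled in a shallow list. The fold given with each peak is the authors' enrichment of the summit over local background. Where a list had several peaks in a region, the highest fold was taken. It is printed to describe each peak within its own list, and no difference between groups was read from it. Handling of reads that match several places is not given in the sources used here, and UGT2B15 and UGT2B17 are near-identical in much of their sequence, so peaks at either gene are uncertain in their assignment.

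The cluster is one of closely related genes, and their upstream sequences show this directly. In the RefSeq annotation of GRCh38.p14 the family runs, in chromosome order, UGT2B29P, UGT2B17, UGT2B15, UGT2B10, UGT2A3, UGT2B27P, UGT2B26P, UGT2B7, UGT2B11, UGT2B28, UGT2B25P, UGT2B24P, UGT2B4, UGT2A3P7, UGT2A1 and UGT2A2, of which 10 are coding and 6 are pseudogenes. Promoters of 5 of 8 genes looked up were matched, 2 of them members: UGT2B15 and UGT2B7. The 250 bases before each start are shown because the peaks described next lay at or near these genes. UGT2B15 lies on the minus strand, with this stretch at chr4:68670653-68670902, and UGT2B7 on the plus strand, at chr4:69096224-69096473, both in GRCh38.p14 and therefore not on the scale of the hg19 peaks. Capitals mark a forkhead motif, read on the strand opposite to the gene.
UGT2B15: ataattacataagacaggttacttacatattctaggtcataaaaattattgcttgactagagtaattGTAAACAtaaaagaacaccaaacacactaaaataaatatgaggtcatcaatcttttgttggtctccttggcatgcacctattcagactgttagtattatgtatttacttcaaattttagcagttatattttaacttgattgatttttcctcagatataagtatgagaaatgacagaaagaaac
UGT2B7: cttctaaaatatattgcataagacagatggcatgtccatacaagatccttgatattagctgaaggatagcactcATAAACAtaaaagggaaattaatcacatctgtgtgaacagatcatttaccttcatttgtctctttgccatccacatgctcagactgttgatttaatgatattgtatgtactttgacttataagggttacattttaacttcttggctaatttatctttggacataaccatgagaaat
Both stretches were rich in A and T, with 71.6% for UGT2B15 and 67.2% for UGT2B7.

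The motifs searched, on both strands of the 300 bases from 250 before to 50 after each start, were TGTTTAC and TGTTTGC, forms bound by FOXA proteins, AGAACA, the half-site of androgen and other steroid receptors, and the HNF1 palindrome. The UGT2B15 promoter held TGTTTAC on the opposite strand, its first base 183 bases upstream of the start, and AGAACA on the gene's strand 172 bases upstream, with no overlap between them. Over 35116 RefSeq promoters of the same length, TGTTTAC occurred in 3.42%, TGTTTGC in 3.89%, AGAACA in 14.8% and the HNF1 palindrome in 0.0057%. A further form, TGTTTAT, was searched after the promoters had been seen, and it occurred in 4.24% of all promoters. TGTTTGC and the HNF1 palindrome were in none of the 5 promoters. UGT2B7, UGT2B10 and UGT2B11 held TGTTTAT on the opposite strand 176, 178 and 182 bases upstream. UGT2A3, the other of the 5, held no match to any motif searched. The 29 bases around each forkhead match are printed for the 4 genes that carry one. These matches lay at nearly the same distance from the start, within flanks that are alike.
UGT2B15: ctagagtaattGTAAACAtaaaagaacac
UGT2B7: ggatagcactcATAAACAtaaaagggaaa
UGT2B10: tgacaccaaatATAAACAtaaaagaaaca
UGT2B11: tgacagtgaatATAAACAtaaaagaaaca
A match describes letters in this window and is no evidence of binding.

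The regions were short and most were held by a part of the libraries. Widths ran from 150 to 1240 bp with a median of 360 bp, and the median region was held by 9.5 of the 29 libraries. All 29 libraries held 8 regions, a share of 10.5% against 21.5% of all regions in the series. A single library held 9 regions, a share of 11.8% against 16.9%. The nearest regions outside the window lay 5.08 kb below it (held by 23 libraries) and 16.01 kb above it (held by 2). The 4 genes differed in what lay at their positions, as the map of the cluster shows.

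**Figure D1:**
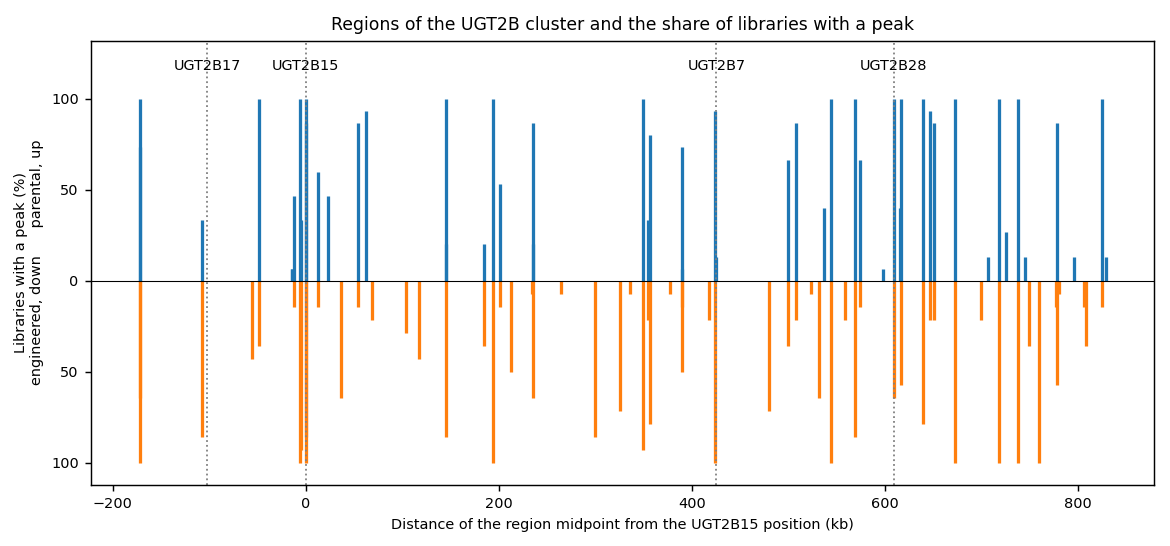
Each vertical line is a region, placed by the distance of its midpoint from the UGT2B15 position in kb. Its height upward is the percent of the 15 parental libraries with a peak, and its length downward the percent of the 14 engineered libraries. Dotted lines mark the 4 gene positions. Lines at UGT2B15 reach 100% both ways, while no line falls on UGT2B17.

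At UGT2B15, region 11 (chr4:69536104-69536828) covered the position of the gene and was held by all 29 libraries. Its fold was 11.7, 12.1 and 11.6 in the parental DMSO lists, 11.8, 11.3 and 12.4 with WX-02-23, 13.1, 13.0 and 9.54 with WX-02-43, 11.7, 14.7 and 11.6 with PladB at 10 nM, and 12.4, 12.04 and 12.3 at 100 nM. In the engineered lists it was 14.1 and 15.1 for WT-FOXA1 with Dox and DMSO, 10.3 and 10.2 with WX-02-23, 11.9 and 12.9 with PladB, 13.6 and 10.9 without Dox, and 13.5 and 13.2, 13.5 and 11.1, and 11.3 and 14.2 for C258A-FOXA1 with DMSO, WX-02-23 and PladB. No group lacked the peak, and the values of every group lay within 9.54 to 15.1. The summits of the 29 peaks fell within 145 bp of each other. Region 12 (chr4:69536996-69537254), 502 bp from the gene position toward higher coordinates, was weaker, with a fold of 4.33 to 6.86 in the 25 libraries that held it. The 4 libraries without it were spread over 4 groups: WX-02-43 replicate 1, PladB 10 nM replicate 2, WT-FOXA1 without Dox replicate 1 and C258A-FOXA1 with WX-02-23 replicate 1.

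At UGT2B28, region 54 (chr4:70145798-70146460) covered the position of the gene and was held by all 15 parental and 9 of 14 engineered libraries. The parental fold was 11.5, 13.8 and 10.4 with DMSO, 10.9, 8.79 and 10.9 with WX-02-23, 11.3, 13.3 and 10.4 with WX-02-43, 10.1, 11.4 and 6.95 with PladB at 10 nM, and 7.50, 8.15 and 8.43 at 100 nM. In the WT-FOXA1 line the fold was 6.42 and 6.51 with Dox and DMSO and 7.18 in replicate 1 without Dox, and the peak was in neither WX-02-23 list, neither PladB list and not in replicate 2 without Dox. All 6 C258A-FOXA1 libraries held it, at 7.43 and 5.90 with DMSO, 6.07 and 7.83 with WX-02-23 and 10.3 and 6.30 with PladB. The missing peaks at UGT2B28 were thus in WT-FOXA1 libraries, and within that line both treatments lacked a peak that both DMSO libraries with Dox held.

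At UGT2B7, region 41 (chr4:69960633-69961472) ended 721 bp before the gene position and was held by 28 libraries, all but replicate 2 of PladB at 100 nM. Its fold ran from 5.20 to 9.05 with a median of 6.44 in the parental lists and from 5.00 to 10.3 with a median of 7.75 in the engineered lists. In the C258A-FOXA1 DMSO lists it was 10.0 and 10.3, and in those of WT-FOXA1 8.02 and 5.26. Region 42 (chr4:69961997-69962156), whose edge lay 37 bp from the gene position, was held only by replicates 2 and 3 of WX-02-43, at a fold of 4.90 and 4.40. A region held by 2 of 3 libraries of a group was not counted as gained.

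UGT2B17 had no region within 1 kb of its position. The nearest was region 3 (chr4:69428799-69429190), 5055 bp away, which was held by 5 parental and 12 engineered libraries. With WX-02-23 all 3 parental lists held it, at a fold of 8.49, 6.84 and 7.28. It was in 1 of 3 DMSO lists (replicate 3, 6.77), in 1 of 3 WX-02-43 lists (replicate 3, 4.40) and in none of the 6 PladB lists. In the engineered cells every library given Dox held it, at 6.42 and 4.88 for WT-FOXA1 with DMSO, 8.41 and 7.98 with WX-02-23, 6.15 and 4.64 with PladB, and 8.001 and 5.36, 9.22 and 9.91, and 6.47 and 8.19 for C258A-FOXA1 with DMSO, WX-02-23 and PladB. Neither library without Dox held it. Region 10, 4859 bp from the UGT2B15 position on the same side, was held by as many libraries in every group but 1. The exception was WT-FOXA1 without Dox, where 1 library held region 10. The part of reads that match both genes in this likeness, and in the missing peak at UGT2B17, was not tested.

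**Figure D2:**
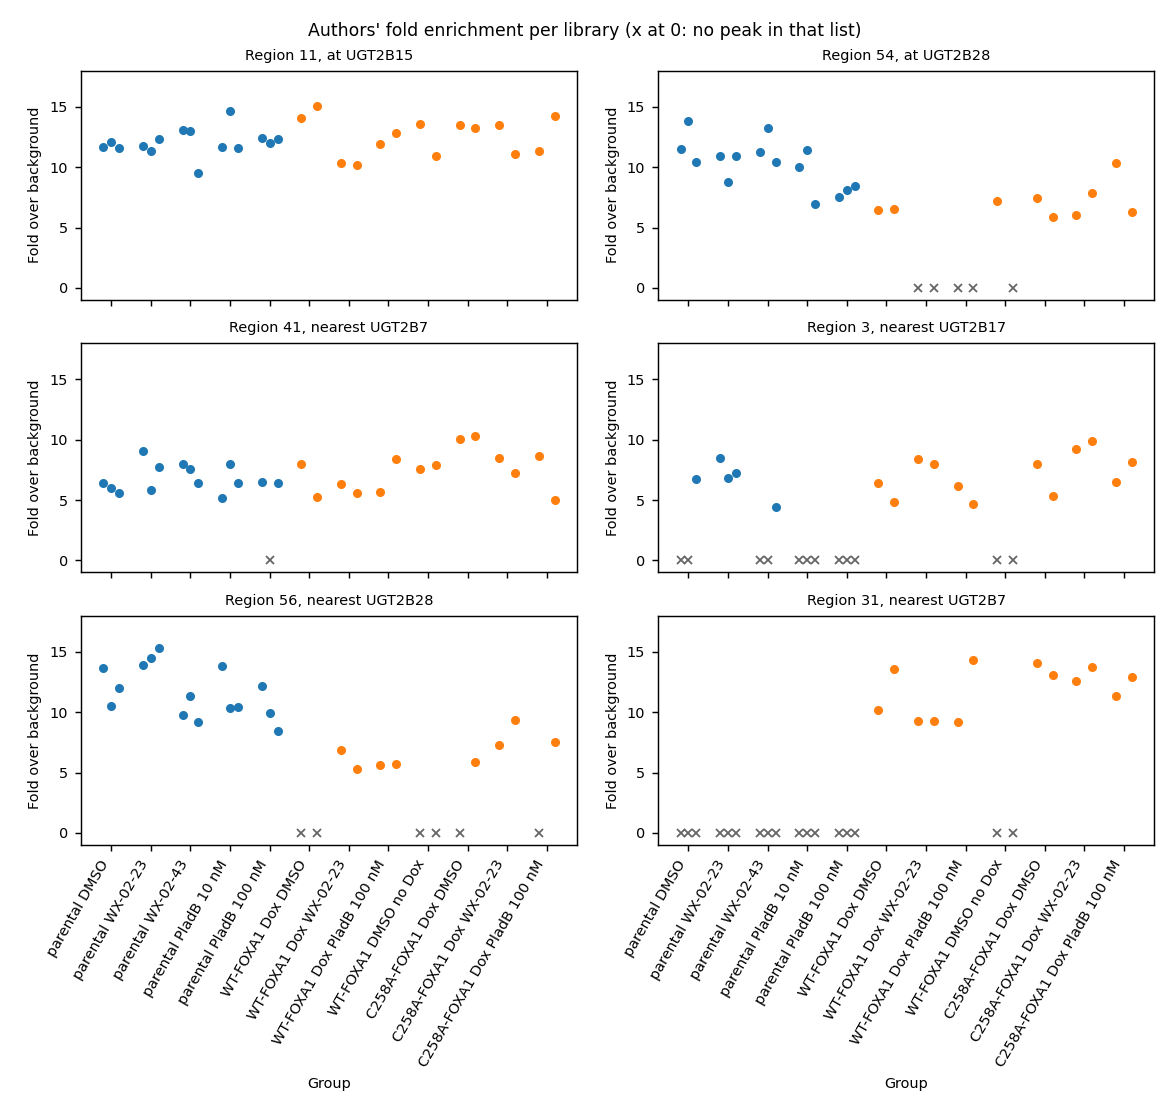
Fold over background (vertical axis, the authors' value) in each library for 6 regions, grouped by treatment along the horizontal axis, parental in blue and engineered in orange. A cross at 0 marks a list without a peak. Region 11 at UGT2B15 has no cross, region 54 at UGT2B28 lacks peaks in 5 WT-FOXA1 libraries, and region 31 has crosses in all 15 parental libraries and both libraries without Dox.

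The other regions held by all 29 libraries were regions 1, 9, 24, 49, 60, 63 and 65, and the mean fold of the 8 ran from 7.86 to 14.97. Region 63 (chr4:70254734-70255431), about 109 kb past UGT2B28, had the highest of these means, with a fold of 11.7 to 19.4. Region 65 (chr4:70274102-70274756) had a fold of 12.1 to 18.6 with a median of 15.4 in the parental lists, and of 5.82 to 17.7 with a median of 9.27 in the engineered lists. The value of 17.7 was that of C258A-FOXA1 with WX-02-23 replicate 2, while replicate 1 stood at 6.07 and no other engineered list was above 11.6. Region 24 (chr4:69730076-69731315) was the widest of the cluster, with summits spread over 796 bp, and region 49 (chr4:70080200-70080872) ran from 5.82 to 17.0. Region 9 (chr4:69530265-69530884), 5610 bp from the UGT2B15 position toward lower coordinates, ran from 5.53 to 11.7. UGT2B15 lies on the minus strand, so that side is downstream in the gene's direction. Region 1 (chr4:69364145-69364495), 69750 bp from UGT2B17, ran from 4.80 to 12.1. Region 60 (chr4:70208913-70209735) ran from 5.53, in the list of WT-FOXA1 without Dox replicate 1, to 14.04.

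Parental and engineered cells differed in which regions they held. At least 1 engineered and no parental library held 24 regions, 31.6% of the cluster against 18.5% of all regions, and at least 1 parental and no engineered library held 15, 19.7% against 25.2%. Of the 24 regions, 1 lay nearest to UGT2B17, 5 to UGT2B15, 8 to UGT2B7 and 10 to UGT2B28. The median of them was held by 3.5 libraries. Cell kind and processing folder cannot be told apart in these counts.

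Region 68 (chr4:70296562-70296847) was the 1 region held by all 14 engineered libraries and no parental one, a share of 1.32% against 0.101% of all regions. Its fold was 21.4 and 24.5 for WT-FOXA1 with Dox and DMSO, 21.0 and 18.2 with WX-02-23, 20.1 and 23.9 with PladB, and 25.1 and 24.8 without Dox. For C258A-FOXA1 it was 26.6 and 26.0 with DMSO, 21.9 and 24.3 with WX-02-23, and 24.8 and 26.2 with PladB. The mean of 23.5 was the highest in the cluster. The 14 peaks were 266 to 285 bp wide and had the same summit base, a spread of 0 bp, whereas the 29 peaks of region 11 were 392 to 659 bp wide. No region was held by all 15 parental and no engineered library, against 0.614% of all regions. Region 17 (chr4:69598590-69599202), singled out after its values were seen, came closest, with 14 parental and no engineered libraries, and a fold of 5.37 to 12.8.

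**Figure D3:**
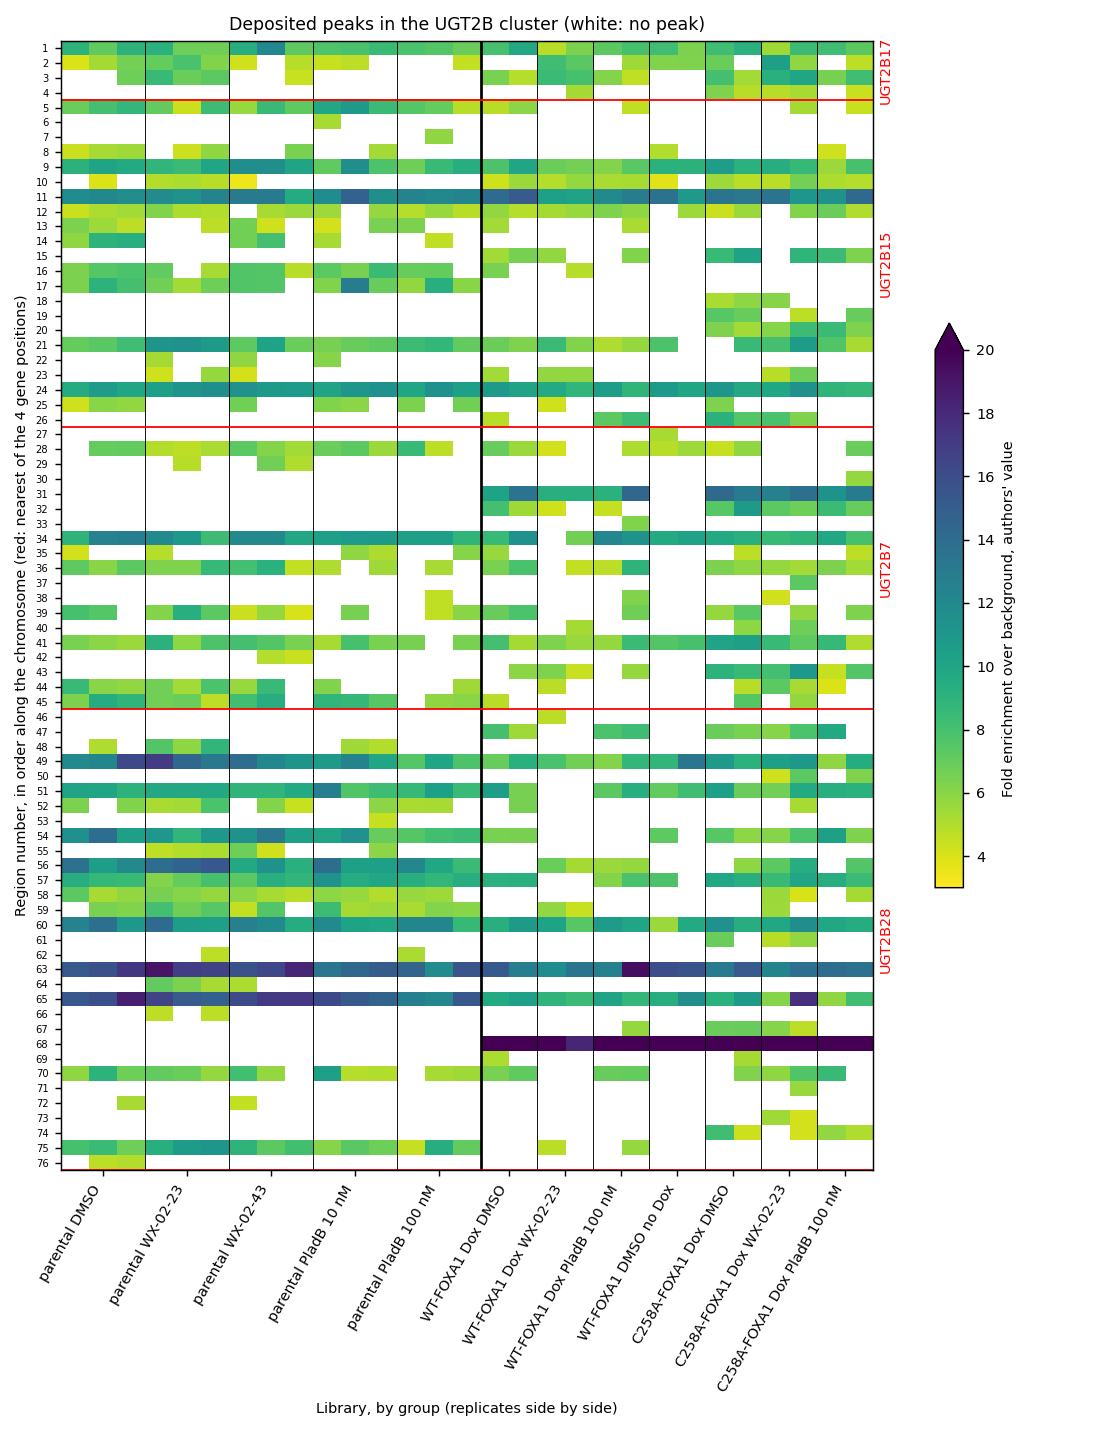
Each row is 1 of the 76 regions in chromosome order and each column 1 library, with replicates side by side. Colour gives the authors' fold over background, and white means no peak. Red lines separate the regions by nearest gene, and the heavy black line separates parental from engineered libraries. Region 68 is filled in all 14 engineered columns and in no parental column.

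The number of cluster regions with a peak was compared first between parental treatments, to see whether the drugs changed openness of the cluster as a whole. The DMSO libraries held 33, 36 and 36 regions (35 ± 1.73, SD, n = 3 here and in the other parental groups), those with WX-02-23 39, 36 and 40 (38.3 ± 2.08) and those with WX-02-43 37, 34 and 29 (33.3 ± 4.04). With PladB at 10 nM they held 33, 29 and 33 (31.7 ± 2.31), and at 100 nM 27, 30 and 27 (28 ± 1.73). All 3 libraries with PladB at 100 nM lay below all 3 DMSO libraries, and every other parental treatment overlapped or touched DMSO. PladB at 100 nM differed from DMSO by -7 regions, and the exact permutation test (two-sided here and throughout) gave p = 0.1, the floor for 3 against 3, or 0.36 with Benjamini-Hochberg adjustment for the 6 pairs. The lists with PladB at 100 nM also had a lower background, 0.662 to 0.734 reads per base against 0.881 to 1.002 with DMSO, and the part of depth in the difference was not tested. Per 100000 peaks of the list the means were 33.1 with PladB at 100 nM and 37.1 with DMSO.

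The stereoisomers WX-02-23 and WX-02-43 were compared at the same dose and time, and their libraries overlapped, with 36 to 40 against 29 to 37 regions. The mean difference was 5 regions, with p = 0.2 by the exact permutation test and 0.36 after adjustment over the 6 pairs. The exact 90% interval from the rank-sum test, the highest level that 3 against 3 libraries allow, was -1 to 11 regions. WX-02-23 differed from DMSO by 3.33 regions (exact permutation p = 0.3, adjusted 0.36, 90% interval 0 to 7). WX-02-43 differed from DMSO by -1.67 regions (exact permutation p = 0.7, adjusted 0.7, interval -7 to 4), and without its replicate 3, whose background of 1.502 topped the series, the difference turned to 0.5. PladB at 10 nM differed from DMSO by -3.33 regions (exact permutation p = 0.3, adjusted 0.36), and the higher dose from the lower by -3.67 (exact permutation p = 0.2, adjusted 0.36). With 3 against 3 libraries no pair could reach the threshold of 0.05, so these p-values do not show that groups were alike. The 90% interval against DMSO was -9 to -3 for PladB at 100 nM, the only one of the 6 that left out 0, and -7 to 0 for PladB at 10 nM, and between the doses it was -6 to 1. With lists cut to equal length the difference from DMSO was 1 for WX-02-23 and -4 for PladB at 100 nM, and that between the PladB doses -1.33.

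**Figure D4:**
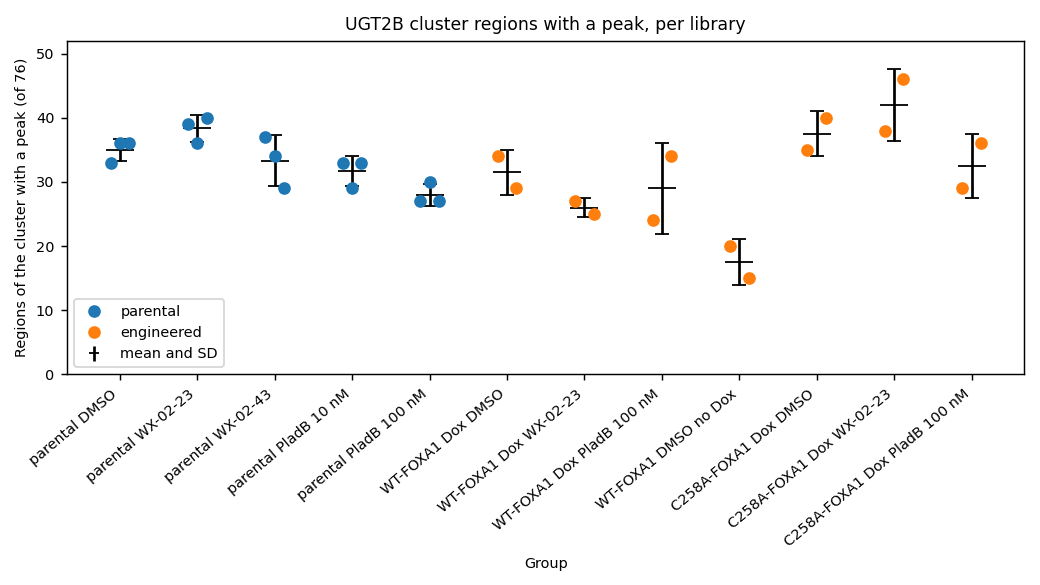
Points give the number of the 76 regions with a peak in each library (vertical axis), by group (horizontal axis), parental in blue and engineered in orange. The long horizontal line is the mean and the bar the SD. The 2 libraries without Dox, at 20 and 15, are the lowest, and C258A-FOXA1 with WX-02-23 replicate 2, at 46, the highest.

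Pairs of groups in the engineered lines were not tested one by one, since an exact permutation of 2 against 2 libraries cannot go below 0.3333. WT-FOXA1 libraries held 34 and 29 regions with Dox and DMSO, 27 and 25 with WX-02-23, 24 and 34 with PladB, and 20 and 15 without Dox. C258A-FOXA1 libraries held 35 and 40 with DMSO, 38 and 46 with WX-02-23, and 29 and 36 with PladB. The libraries without Dox lay below every other library of the series, 14 regions below Dox and DMSO on average. Their lists were also shorter, 67195 to 69814 peaks against 85009 to 88140, and per 100000 peaks the means were 25.5 without Dox and 36.3 with it. With lists cut to equal length the difference was 7 regions, and with at least 50% of a region covered 9.5. The WX-02-23 difference was -5.5 regions for WT-FOXA1 and 4.5 for C258A-FOXA1. The difference between the lines, -10 regions, had p = 0.444 by an exact permutation test over 36 arrangements, where 0.0556 is the smallest possible. That test permuted line labels within each treatment, so it took the lines as alike under both. A line difference shared by both treatments widens its spread, so the p-value cannot decide whether the WX-02-23 change differed. The difference between the lines was -3.5 with lists of equal length, -2.44 per 100000 peaks and -6 with 50% of a region covered. The WX-02-23 lists of the WT-FOXA1 line were short, 62832 to 67815 peaks. Their background was 0.903 to 1.26 reads per base against 0.844 to 0.869 with Dox and DMSO, and the part of depth in the difference was not tested. The WX-02-23 difference of that line changed sign to 0.5 with lists of equal length and to 3.46 per 100000 peaks. WT-FOXA1 with PladB differed by -2.5 regions, which turned to 2.5 without PladB replicate 1, and C258A-FOXA1 with PladB by -5, or -2 with lists of equal length.

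Over the 3 lines together, each treated library set against DMSO of its own line, WX-02-23 differed from DMSO by 0.778 regions (exact permutation p = 0.767 over 720 arrangements, adjusted 0.767) and PladB at 100 nM by -4.83 regions (exact permutation p = 0.0583, adjusted 0.117). Neither passed the threshold of 0.05. Both calls depended on the processing, and the p-values that follow are not adjusted. Per 100000 peaks of the list, the WX-02-23 difference was 4.10 with a p of 0.00556 by the exact permutation test. PladB passed at a q-value of 1e-05 or below (-6.5, p = 0.0167 by the exact permutation test) and with lists of equal length (-2.78, exact permutation p = 0.00833), but per 100000 peaks its difference was -1.77 with an exact permutation p of 0.286.

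Single regions were then compared by presence. A region was called gained where every library of the first group and none of the second held it, and lost in the reverse case, with no test, and each share is set beside the share over all regions held by at least 1 library of the comparison. Comparisons within a line share their DMSO libraries, so a region missing from those libraries can be gained in several of them. Shares over all regions were taken under the main setting only. Counts under other settings, or without 1 library, therefore have no share beside them.

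In parental cells WX-02-23 gained 2 of 47 cluster regions against DMSO, where 1.82% of all regions were gained, and lost 2 of 47, where 1.18% were lost. Both gained regions lay past UGT2B28. Region 55 (chr4:70152707-70152917), 6490 bp from that gene, had a fold of 4.62, 4.96 and 5.11 with WX-02-23, and it was also in 2 of 3 WX-02-43 lists (6.78 and 4.25) and in 1 PladB 10 nM list (5.95). Region 64 (chr4:70261968-70262417) had 7.07, 6.35 and 5.20 with WX-02-23, and 5.09 in WX-02-43 replicate 1. No engineered library held either region. Both lost regions lay nearest to UGT2B15. Region 14 (chr4:69559221-69559589) had a fold of 5.85, 8.99 and 9.37 with DMSO, 6.61 and 8.02 in WX-02-43 replicates 1 and 2, 5.20 in 1 list with PladB at 10 nM and 4.66 in 1 at 100 nM. Region 25 (chr4:69738200-69738478) had 4.25, 5.99 and 5.73 with DMSO and was in 1 WX-02-43 and 4 PladB lists.

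WX-02-43 gained and lost 0 of 46 regions, where 0.34% of all regions were gained and 0.369% lost. Against its stereoisomer, WX-02-23 gained 1 of 47 regions, where 1.6% of all were gained, and lost 0, where 1.07% were lost. The 1 region was region 48 (chr4:70073132-70073715), nearest to UGT2B28, at 7.54, 5.86 and 8.84 with WX-02-23. It was also in DMSO replicate 2 (4.99) and in PladB 10 nM replicates 2 and 3 (5.43 and 4.96). PladB at 10 nM gained and lost 0 of 44, where 0.408% were gained and 0.556% lost. PladB at 100 nM gained 0 of 43, where 0.187% were gained, and lost 1, where 1.68% were lost. That was region 8 (chr4:69524485-69524811), nearest to UGT2B15, at 4.39, 5.25 and 5.45 with DMSO. Counts this small lie near the shares over all regions and are no result about the cluster. Regions were also counted by the nearest of the 4 positions, which need not be the nearest gene. For UGT2B17 the parental WX-02-23 libraries held 3 regions against 2 to 3 with DMSO. For UGT2B15 they held 9 to 12 against 12 to 13, and for UGT2B7 7 to 8 against 6 to 7. For UGT2B28 they held 16 to 18 against 12 to 15. In the WT-FOXA1 line with Dox the UGT2B17 numbers were 3 to 4 with WX-02-23 against 2 with DMSO. They were 8 to 9 against 8 to 12 for UGT2B15, 6 against 8 to 9 for UGT2B7 and 7 to 9 against 11 for UGT2B28. The WX-02-23 lists of that line were shorter, 62832 to 67815 peaks against 85009 to 88140. In the C258A-FOXA1 line the UGT2B17 numbers were 4 against 3 to 4, and those of UGT2B15 9 to 12 against 11. They were 8 to 11 against 8 to 12 for UGT2B7 and 17 to 19 against 12 to 14 for UGT2B28. The counts by position were not tested, and they have no share over all regions beside them.

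In the WT-FOXA1 line the cluster held more peaks with Dox than without. Dox gained 9 of 39 regions, 23.1% against 13.2% of all regions, and lost 1, where 1.1% were lost. With lists cut to equal length 4 were gained, and without Dox and DMSO replicate 2 there were 16. No share over all regions was taken for these 2 settings, so neither count can be set beside 13.2%. The 9 gained regions were region 3 near UGT2B17, regions 5 and 15 nearest to UGT2B15, regions 31, 32, 36 and 39 nearest to UGT2B7, and regions 47 and 70 nearest to UGT2B28. They were picked because both WT-FOXA1 libraries with Dox and DMSO held them and neither library without Dox did. What those libraries hold was therefore fixed by the choice. Presence of the 9 in the other groups, given next, is a description.

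Region 31 (chr4:69836385-69836952), 125241 bp from UGT2B7, had the highest fold of the 9. It was 10.2 and 13.6 for WT-FOXA1 with Dox and DMSO, 9.25 and 9.31 with WX-02-23, and 9.16 and 14.4 with PladB. For C258A-FOXA1 it was 14.1 and 13.1 with DMSO, 12.6 and 13.7 with WX-02-23, and 11.3 and 13.0 with PladB. All 12 libraries given Dox held it, and none of the 15 parental libraries or the 2 without Dox did. Regions 15 (chr4:69572438-69572756), 32 (chr4:69861665-69862119) and 47 (chr4:70068160-70068597) were likewise in no parental library and in no library without Dox. Region 15 had 5.35 and 6.51 with WT-FOXA1, Dox and DMSO, and 8.57 and 10.2 with C258A-FOXA1, Dox and DMSO. For region 32 the values were 8.02 and 5.42 against 7.43 and 10.7, and for region 47 they were 8.02 and 5.42 against 6.86 and 6.43.

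The other 5 gained regions also occurred in parental cells. Region 5 (chr4:69487829-69488274) was in all 15 parental lists, at 4.39 to 10.9, and in the engineered cells in both WT-FOXA1 libraries with Dox and DMSO (4.81 and 5.96) but in neither C258A-FOXA1 one. Region 36 (chr4:69892875-69893558) was in 12 parental lists, region 39 (chr4:69926665-69927153) in 11 and region 70 (chr4:70314804-70315258) in 13. In the parental DMSO lists, 3 of the 9 regions were in all 3 libraries and 4 in none. In C258A-FOXA1 libraries with Dox and DMSO, 7 of the 9 were in both and 1 in neither. The region lost with Dox was region 2 (chr4:69364634-69365303), 68942 bp from UGT2B17, at 6.21 and 6.27 without Dox.

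In the WT-FOXA1 line WX-02-23 lost 7 of 45 regions against Dox and DMSO, 15.6% against 11.7% of all regions, and gained 3, where 1.31% were gained. With lists of equal length the counts were 5 lost and 5 gained. Without 1 library the lost count ran from 8 to 12, the highest without Dox and DMSO replicate 2. The 7 regions were region 5 nearest to UGT2B15, region 39 nearest to UGT2B7, and regions 47, 51, 54, 57 and 70 nearest to UGT2B28. Region 57 (chr4:70175476-70176332) had 9.11 and 9.22 with Dox and DMSO, and region 51 (chr4:70104859-70105833) 10.5 and 6.51. In C258A-FOXA1 cells with WX-02-23 both libraries held 5 of the 7 regions and 1 of the 2 libraries the others, and in parental cells with WX-02-23 all 3 libraries held 6 of the 7. With DMSO, both C258A-FOXA1 libraries given Dox held 5 of the 7, with 1 region in 1 library and 1 in neither. All 3 parental DMSO libraries also held 5. The 7 were picked because both WT-FOXA1 lists with WX-02-23 lacked them, so no other group could hold fewer. These counts are a description, and the difference between the lines was not tested for single regions.

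The 3 regions gained with WX-02-23 in the WT-FOXA1 line were regions 2, 56 and 59. Region 56 (chr4:70152993-70153572), 6776 bp from UGT2B28, had a fold of 6.83 and 5.32 with WX-02-23 and 5.59 and 5.67 with PladB, and was in neither DMSO library with Dox nor in either without. In C258A-FOXA1 it was in DMSO replicate 2 (5.90), in both WX-02-23 libraries (7.28 and 9.39) and in PladB replicate 2 (7.56). All 15 parental libraries held it, at 8.43 to 15.3. Region 2 had 8.19 and 7.38 with WX-02-23, and region 59 (chr4:70187001-70187362) 5.74 and 4.43. PladB in the WT-FOXA1 line gained 1 of 42 regions, where 0.915% were gained, and lost 1, where 3.05% were lost. These were regions 56 and 54, and both treatments were set against the same 2 DMSO libraries.

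In the C258A-FOXA1 line WX-02-23 gained 4 of 53 regions, where 2.37% of all regions were gained, and lost 1, where 2.55% were lost. The gained count was 1 at a q-value of 1e-05 or below, 2 with lists of equal length and 6 to 8 when 1 library was left out. The gained regions were 23 (chr4:69720810-69721440), 50 (chr4:70095736-70095988), 58 (chr4:70183474-70183998) and 73 (chr4:70342850-70343155), with a fold between 4.02 and 7.30. Region 58 was also in 14 parental lists, and region 73 in no other library of the series. The lost region was 28 (chr4:69771486-69771988), at 4.52 and 5.79 with DMSO. PladB gained 0 of 48 regions, where 0.806% were gained, and lost 3, 6.25% against 4.67%. These were regions 18 (chr4:69605535-69605724), 26 (chr4:69748648-69748994) and 67 (chr4:70286528-70286824), whose DMSO folds were 5.14 and 5.90, 9.14 and 7.50, and 6.86 and 6.97. The PladB lists of this line had the lowest background of the series, 0.546 to 0.587 reads per base, and its part in the lost regions was not tested.

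The engineered lines were also set against each other with Dox and DMSO, a comparison added after seeing the data. C258A-FOXA1 libraries held 6 of 48 regions that WT-FOXA1 libraries lacked, 12.5% against 3.7% of all regions, and lacked 1 that they held, where 3.82% were so. The 6 were region 4 (chr4:69480859-69481173) nearest to UGT2B17, regions 18, 19 (chr4:69640418-69640665) and 20 (chr4:69654143-69654500) nearest to UGT2B15, and regions 67 and 74 (chr4:70345026-70345333) nearest to UGT2B28. No parental library held any of them, and neither did a library without Dox. Of the other WT-FOXA1 libraries, 1 with WX-02-23 held region 4 (5.32) and 1 with PladB held region 67 (5.67). Region 20 had 6.29 and 5.36 with DMSO, 6.07 and 8.35 with WX-02-23, and 8.41 and 6.30 with PladB, and all 6 C258A-FOXA1 libraries held it while no other library did. Region 19 had 7.43 and 6.97 with DMSO, and region 74 8.22 and 4.29. The 1 region in the other direction was region 5. These counts were not tested.

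The 41 regions within 1 kb of a gene position, called in 1 of the 10 comparisons other than that of the engineered lines with each other, held by all libraries or among the 5 of highest mean fold were described above. The remaining 35 were held by 1 to 28 libraries, with a median of 3, and their mean fold ran from 4.47 to 10.1. They include regions 4, 19, 20 and 74 of the added comparison and region 17, described above, and 3 more that were also picked after their values were seen. Region 34 (chr4:69885822-69886509), nearest to UGT2B7, was the one held by 28, and lacked a peak in WT-FOXA1 with WX-02-23 replicate 1. Region 75 (chr4:70361381-70361967) was held by all 15 parental and 2 engineered libraries. Region 10 (chr4:69531153-69531635) lay 4859 bp from the UGT2B15 position toward lower coordinates. It was held by all 3 parental WX-02-23 libraries at 4.97, 5.07 and 4.83, by 1 parental DMSO and 1 WX-02-43 library, by no parental PladB library, and by 13 of 14 engineered libraries.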

How the data were processed

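Per the labels' protocols, libraries were made with a commercial ATAC-seq kit. The submitters' processing notes name Bowtie2, MACS2 and build hg19. Tool versions, options and the treatment of multiply matching reads: not given in the sources used here. Since the authors deposited 1 peak list per library, replicates were not pooled. Each deposited list gives a score, a fold (a ratio of summit to local background), the −log10 of the p-value and of the q-value, and how far the summit lies from the peak's start. The lowest −log10 q of a deposited list was 2.00 to 2.15.

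Peaks on chromosomes 1 to 22, X and Y of all 29 lists were merged where they overlapped or touched, and an overlap of 1 bp or more with any peak of a library counted as presence. The cluster's members, the gene positions and the lists were chosen with earlier results of these data known. Region numbers per library were tested by exact permutation (two-sided), adjusted by the Benjamini-Hochberg method over the 6 parental pairs and over both tests across the 3 lines. Gained and lost regions were counted without a test, over the whole series and in the cluster, and the counting was tested on simulated data. The 90% intervals were added after seeing the data.

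Regions were described one by one when within 1 kb of a gene position, called in 1 of 10 comparisons, held by all libraries or among the 5 with the highest mean fold. The relative depth is the background read from the even steps of the deposited fold values; peaks with a fold under 8 that matched such a step within 0.0001, and its −log10 p within 0.01, made up 10.6% to 20.3% of a list. The alternatives tried were counts per 100000 peaks, lists cut to equal length by p-value, a q-value of 1e-05 or below, 50% of a region covered, regions of the compared libraries only, a replicate block, and each library left out in turn. Promoters came from RefSeq (GRCh38.p14). No hg19 genome or annotation was used here, so exons, introns and the other family genes were not placed, and no peak sequence is shown. The scripts ran under Python 3.11.15 with scipy 1.17.1, pandas 2.3.3, numpy 2.4.6 and matplotlib 3.10.9.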

Additional observations from a re-analysis of the deposited data

How the results depend on the processing

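Groups of 2 or 3 libraries, unknown read depth and lists called one by one limit every count here, and a missing peak is not closed chromatin. Regions merged over the compared libraries only kept the sign of all 14 differences in region number, and both tests over the 3 lines stayed above the threshold, while the other 7 tests could not reach it by design. The labels' replicate numbers did not pair the libraries, since deviations of same-numbered libraries correlated at -0.0323 to 0.0256. With the replicate block the differences were the same, and the exact permutation p was 0.5, 0.75, 0.5, 0.25, 0.25 and 0.5 for the 6 parental pairs in the order WX-02-23, WX-02-43, PladB 10 nM and PladB 100 nM against DMSO, WX-02-23 against WX-02-43 and PladB 100 nM against 10 nM, and 0.781 and 0.0781 for WX-02-23 and PladB over the 3 lines, so it changed no call.

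Other settings changed some results, and where nothing else is said the cause was not tested. P-values under these settings are not adjusted. With 50% of a region covered, WX-02-43 differed from DMSO by 0.667 regions, a changed sign, and PladB over the 3 lines by -5.5 (p = 0.0278, exact permutation). At a q-value of 1e-05 or below, WX-02-23 over the 3 lines differed by -1.28, a changed sign, and PladB by -6.5. With lists of equal length, PladB over the 3 lines differed by -2.78, WT-FOXA1 with WX-02-23 by 0.5 and Dox against no Dox by 7. Per 100000 peaks, WX-02-23 over the 3 lines differed by 4.10, WT-FOXA1 with WX-02-23 by 3.46 and Dox against no Dox by 10.9.

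Counts of regions moved as follows. With 50% covered there were 4 gained with parental WX-02-23, 1 lost with PladB 10 nM, 0 lost with PladB 100 nM, 4 gained with WX-02-23 against WX-02-43, 2 gained with WT-FOXA1 and PladB, 0 lost with C258A-FOXA1 and WX-02-23 and 0 lost for C258A-FOXA1 against WT-FOXA1. At the stricter q-value there were 1 lost with parental WX-02-23, 2 lost with PladB 100 nM, 4 gained with WX-02-23 against WX-02-43, 2 gained and 2 lost with WT-FOXA1 and PladB, 1 gained with C258A-FOXA1 and WX-02-23 and 0 lost for C258A-FOXA1 against WT-FOXA1. With lists of equal length there were 1 lost with PladB 10 nM, 2 gained with WX-02-23 against WX-02-43, 5 gained with WT-FOXA1 and WX-02-23, 2 lost with WT-FOXA1 and PladB, 2 gained with C258A-FOXA1 and WX-02-23 and 4 gained with Dox.

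Leaving out each library in turn gave differences from DMSO of 2.33 to 4.5 for parental WX-02-23, -3.5 to 0.5 for WX-02-43 (changed sign without WX-02-43 replicate 3), -4.33 to -2 for PladB 10 nM and -8 to -6.5 for PladB 100 nM. They were 2.83 to 6.83 for WX-02-23 against WX-02-43 and -5 to -3 between the PladB doses. Over the 3 lines WX-02-23 gave -0.556 to 2.11, with a changed sign without WT-FOXA1 Dox DMSO replicate 2, C258A-FOXA1 WX-02-23 replicate 2 or C258A-FOXA1 DMSO replicate 1. PladB gave -6.5 to -3.17, with -6.5 when WT-FOXA1 PladB replicate 2 was left out and -6 when C258A-FOXA1 PladB replicate 2 was. In WT-FOXA1 cells WX-02-23 gave -8 to -3 and PladB -7.5 to 2.5, in C258A-FOXA1 cells 0.5 to 8.5 and -8.5 to -1.5, Dox against no Dox 11.5 to 16.5, and the difference between lines -14 to -6.

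The gained and lost counts mostly grew when a library was left out, because fewer libraries have to hold or lack a peak. Of these counts 45 moved, either by more than 1.5 times or between 0 and a higher count. Gained and lost ran, in this order, from 2 to 4 and 2 to 3 for parental WX-02-23, 0 to 2 and 0 to 1 for WX-02-43, 0 to 0 and 0 to 2 for PladB 10 nM, 0 to 0 and 1 to 3 for PladB 100 nM, and 1 to 3 and 0 to 1 for WX-02-23 against WX-02-43. They ran from 4 to 7 and 8 to 12 for WT-FOXA1 with WX-02-23, 1 to 6 and 2 to 6 with PladB, 6 to 8 and 2 to 6 for C258A-FOXA1 with WX-02-23, 0 to 4 and 4 to 7 with PladB, 10 to 16 and 1 to 3 for Dox, and 7 to 9 and 1 to 4 for C258A-FOXA1 against WT-FOXA1.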

Other observations

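The 3 regions outside the cluster whose presence most resembled the number of cluster regions per library over the 29 libraries were chr10:68200379-68200873 (Pearson r = 0.754), chr8:50932272-50933025 (r = 0.752) and chrX:131019570-131020060 (r = 0.731), in hg19. Over the 15 parental libraries 12 regions shared the highest value, r = 0.859, among them chr11:47225745-47226411, chr13:72749941-72750302 and chr15:81205821-81206412. These values are a description. Libraries of a group share their line and treatment, the groups also differ in depth, and the regions were picked as the highest of all.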
